A study of Mus musculus with 39 samples.

Results

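The genes described here are 48 cell cycle genes, taken by name from a table of 53465 genes and ordered by the phase in which they act. Of these, 19 serve DNA replication, 24 serve mitosis, and 5 are the E cyclins and the transcription factors that drive entry into both phases. All 48 were found. All 48 also passed the filter on low values (at least 1 TPM in at least 3 libraries), which left 18466 genes, and each had at least 1 TPM in all 39 libraries. TPM, a transcript's share of all transcripts, is a level per transcript length, so levels can be set side by side between genes, but the depth behind them is unknown.

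The study profiled, in bulk, myeloid-derived suppressor cells, which dampen T cell responses, after sorting into granulocytic (G), monocytic (M) or combined (G+M) cells. Newborn marrow came from C57BL/6 mice at postnatal day 7, as all cells, G and M. Spleens came from BALB/c mice whose label names an unspecified immune deficiency (G+M, G and M) and from APCmin/+ mice, which carry a mutant Apc allele and develop intestinal tumours (G+M, G and M), and intestine came from the latter (all cells, G+M, G and M). Each of these 13 groups has 3 libraries, the labels do not say whether they come from separate animals, and p-values therefore measure only the spread between these samples, which may be technical. The labels and protocols read here name neither the sorting markers nor the age and strain of the APCmin/+ mice. Between the kinds of mice, genotype, strain, age and any batch cannot be told apart. In bulk RNA, fewer cycling cells and less cell cycle RNA per cell cannot be told apart either.

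A cell that commits to division first switches on E2F target genes: the E cyclins, the loaders and subunits of the MCM helicase, the enzymes that make deoxynucleotides, and the chromatin assembly factors of the fork. Later, in G2 and mitosis, B-MYB (Mybl2) and FOXM1 act with the MuvB complex on a second wave of genes, whose promoters often carry a short element called CHR and CCAAT boxes. In marrow, promyelocytes, early monocytic cells and erythroblasts divide, whereas mature neutrophils and most monocytes have left the cycle.

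The promoters of both waves are shown first, because the letters known for each wave were counted in the arms. RefSeq start sites on the build GRCm38.p6 gave a window of 300 bases (250 before and 50 after the start) for 40 of the 48 genes. Gins2, Ccne2, Mcm4, Ccna2, Kif20a, Aurkb, Foxm1 and Tpx2 had none in the table used. For 28 of the 40, the first 30 bases from the start were found in a GENCODE transcript of the same gene. For the others the start was not matched in that annotation, so positions given from the start are those of RefSeq. Each window was searched on both strands for the E2F letters, TTTGGCGC or TTTCGCGC. The CHR element was searched as TTTGAA, which allows a match on either strand, and also in a second spelling, TTCGAA, which reads the same on both strands. The box bound by NF-Y was searched as the letters CCAAT on both strands. The stretches below run 5′ to 3′ in the direction of the gene, from 180 to 11 bases before the start, with matches in capitals, where a match on the other strand shows as its reverse complement (ATTGG for the CCAAT box). Cdc20 and Ccnb2 are shown from the mitotic arm, Mcm6 and Mcm5 from the replication arm. Mcm6 and Mcm5 were the only replication genes with E2F letters within this stretch, so they are not typical of their arm. Ccnb2 has another CHR match outside the stretch, which begins at base 5 when the start itself is counted as the first base. Overlapping matches run together in Mcm6 and Mcm5.
Cdc20, chr4:118437354-118437523, minus strand: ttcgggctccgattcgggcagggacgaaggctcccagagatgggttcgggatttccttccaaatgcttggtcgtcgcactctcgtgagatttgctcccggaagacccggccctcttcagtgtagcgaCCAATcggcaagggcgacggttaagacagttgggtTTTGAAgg
Ccnb2, chr9:70421565-70421734, minus strand: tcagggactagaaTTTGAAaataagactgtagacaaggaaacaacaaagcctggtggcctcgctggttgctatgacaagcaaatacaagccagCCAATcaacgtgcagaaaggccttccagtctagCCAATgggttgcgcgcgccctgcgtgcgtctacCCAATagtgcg
Mcm6, chr1:128359716-128359885, minus strand: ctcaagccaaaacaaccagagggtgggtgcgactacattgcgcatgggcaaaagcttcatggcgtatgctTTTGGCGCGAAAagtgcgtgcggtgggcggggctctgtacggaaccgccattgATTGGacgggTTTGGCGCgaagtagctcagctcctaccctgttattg
Mcm5, chr8:75109329-75109498, plus strand: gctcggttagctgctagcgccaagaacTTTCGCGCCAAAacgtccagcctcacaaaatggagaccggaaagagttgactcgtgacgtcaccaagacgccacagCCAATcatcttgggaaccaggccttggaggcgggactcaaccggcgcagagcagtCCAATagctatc

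A gene counts as holding a motif when any of its windows does, since a few genes have more than 1 start. The CHR letters were in 16 of 20 mitotic genes and in 3 of 17 replication genes, against 21.7% of all 27025 genes with windows of this length. All 16 mitotic genes with the letters had a match that began within 100 bases before the start or after it. The E2F letters were in 6 of 17 replication genes and in 1 of 20 mitotic genes, Cdk1, against 0.929% of all genes. CCAAT was in 18 of 20 mitotic and 11 of 17 replication genes, against 41.1% of all. These are matches of letters and not shown to be bound sites, and other spellings of the elements were not searched.

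The cell type labels were checked against marker genes. The 12 mature neutrophil genes summed to 17980 to 135400 TPM in the G sorts of marrow and of both spleens, but to 68.1 to 755 TPM in the intestinal G sort. They were as high in the M sorts of marrow (120400 to 141400 TPM) and of APCmin/+ spleen (37010 to 119100 TPM), and lower in BALB/c M (5708 to 7706 TPM). The 12 monocyte genes summed to 4834 to 4948 TPM in marrow M and to 604 to 741 TPM in intestinal M. The intestinal M sums were above unsorted intestine (296.0 to 413.0 TPM), intestinal G (126.2 to 183.3 TPM) and intestinal G+M (221.3 to 291.5 TPM). They were under marrow G (772.5 to 811.7 TPM). In all 4 intestinal groups, 17 epithelial genes summed to 15520 to 21400 TPM, against at most 1319 TPM elsewhere. The intestinal sorts therefore went against their myeloid labels, and are named below by tissue and label only. In BALB/c spleen, 12 mature B and plasma cell genes summed to 6427 to 7808 TPM, and in APCmin/+ spleen to 2781 to 7494 TPM. In marrow G, 8 precursor B cell genes summed to 2147 to 2403 TPM. The splenic sorts and both marrow sorts, M with its neutrophil genes, thus also carried markers outside their labels. The APCmin/+ spleen libraries stood apart within their groups: the erythroid sum over 13 genes ran from 4021 to 17540 TPM in the M sort, and library 3 was the lowest in each of the 3 sorts.

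Newborn marrow held the most cell cycle RNA and BALB/c spleen the least. For each library, log2(TPM + 1) was averaged over the 19 replication genes and over the 24 mitotic genes. The replication mean was 7.42 ± 0.04 (SD, n = 3) in unsorted marrow, 6.31 ± 0.14 in marrow M and 6.05 ± 0.18 in marrow G. It was 5.48 ± 0.68 in the M sort of APCmin/+ spleen, between 4.11 and 4.85 in the other APCmin/+ groups, and between 3.83 and 4.10 in BALB/c spleen. Only unsorted marrow was separated from the next group, since the library ranges of all other neighbours in this order overlapped.

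**Figure D1:**
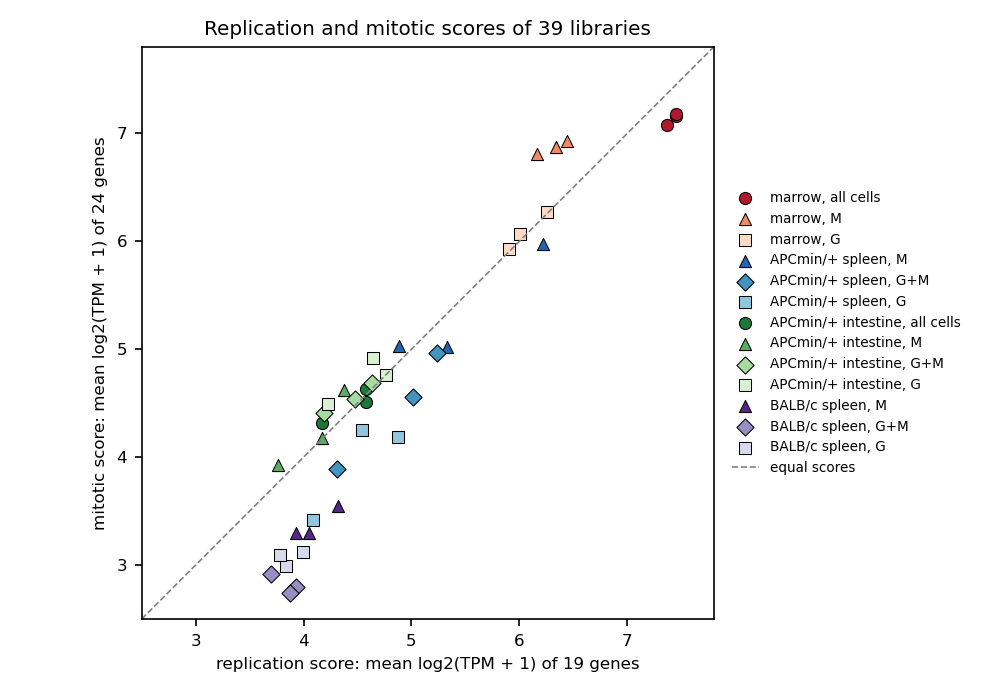
Mean log2(TPM + 1) of the 24 mitotic genes against that of the 19 replication genes, 1 point for each of the 39 libraries, with shape and colour for the group and a dashed line where the means are equal. Unsorted marrow is highest in both arms, marrow M lies 0.49 to 0.65 above the line, and all BALB/c libraries lie below it.

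The mitotic mean separated more groups. It was 7.14 ± 0.05 in unsorted marrow, 6.87 ± 0.06 in marrow M, 6.09 ± 0.17 in marrow G and 5.34 ± 0.55 in the M sort of APCmin/+ spleen. It then ran through overlapping groups from 4.72 ± 0.22 (intestinal G) to 3.95 ± 0.46 (G of APCmin/+ spleen), and ended with BALB/c M at 3.38 ± 0.14, BALB/c G at 3.07 ± 0.07 and BALB/c G+M at 2.82 ± 0.09. The last 3 groups did not overlap each other. Unsorted marrow, marrow M and the M sort of APCmin/+ spleen were each separated from the group below.

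The balance between the arms differed between tissues. The mitotic minus replication difference was 0.56 ± 0.08 in marrow M, which no other group overlapped. It lay near 0 in marrow G (0.04 ± 0.02) and in the 4 intestinal groups (0.04 to 0.18), and was -0.28 ± 0.01 in unsorted marrow. In APCmin/+ spleen it was -0.14 ± 0.25 in M, -0.38 ± 0.10 in G+M and -0.55 ± 0.22 in G, and it was lowest in BALB/c spleen (-0.72 ± 0.08 in M, -0.80 ± 0.10 in G and -1.01 ± 0.20 in G+M). Against unsorted marrow, the 9 BALB/c libraries differed by a median over genes of -4.17 on the log2 scale in the mitotic arm and -3.43 in the replication arm.

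Single genes followed this order. Mki67, the proliferation antigen that coats mitotic chromosomes, had 374, 328 and 348 TPM in unsorted marrow, 241, 265 and 264 TPM in marrow M and 132, 170 and 155 TPM in marrow G. It fell to 81.1, 161 and 75.4 TPM in the M sort of APCmin/+ spleen and to 19.4, 25.3 and 19.3 TPM in that of BALB/c spleen. The marrow groups did not overlap each other or either spleen sort except for M library 2 of APCmin/+ spleen, which reached the marrow G range. Over all genes, the highest group was unsorted marrow for 43 members and marrow M for 5, and the lowest was G+M of BALB/c spleen for 28, intestinal M for 11, BALB/c G for 7 and BALB/c M for 2.

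**Figure D2:**
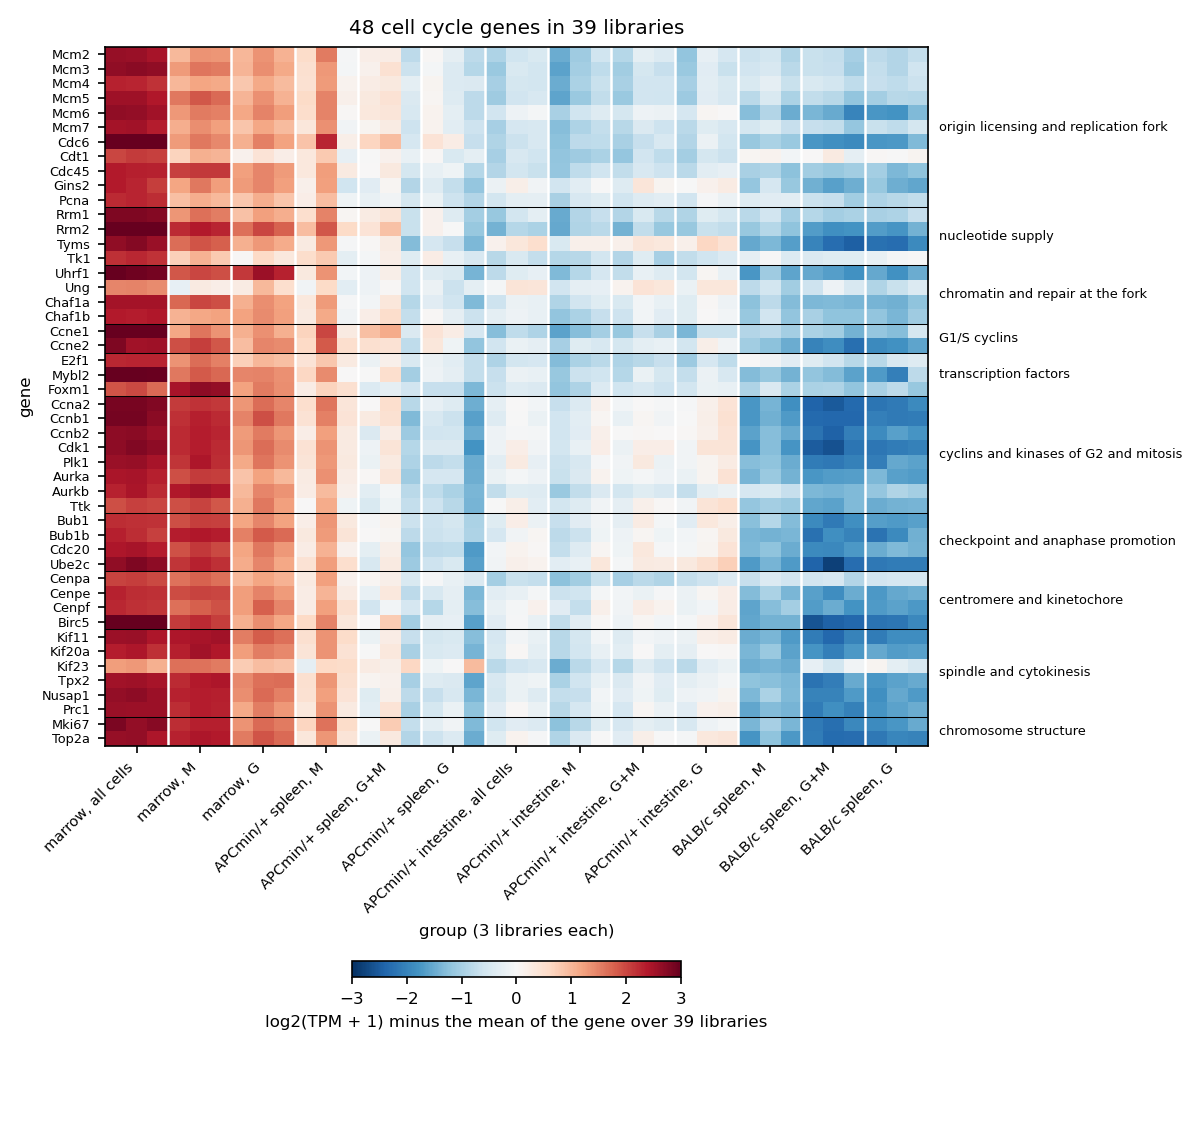
log2(TPM + 1) of the 48 genes (rows, by role) in 39 libraries (columns, by group) minus each gene's mean over the libraries, with colours that end at 3 above and below. Unsorted marrow is high in all rows, and BALB/c columns are low except in rows such as Cdt1, Tk1 and, in G and G+M only, Kif23.

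Both marrow sorts were below unsorted marrow in both arm means. Members of the replication arm were called lower in both sorts, and members of the mitotic arm in G. A gene was called changed at an adjusted p under 0.05 (limma on log2(TPM + 1), Benjamini-Hochberg over all 18466 genes) and a size of at least 1 on the log2 fold scale. Against unsorted marrow, 33 members were lower in G (9.49% of all genes were called lower), with 16 of 19 replication and 13 of 24 mitotic genes. Cdc6, which loads the MCM helicase on origins, had 98.0, 96.2 and 92.5 TPM in unsorted marrow and 20.6, 28.5 and 23.0 TPM in G, a log2 fold change of -1.96 ± 0.35 (SE, adjusted p = 2.06e-05). Tk1, the thymidine kinase of the salvage pathway, had 259, 271 and 257 TPM against 57.4, 85.5 and 69.7 TPM (-1.89 ± 0.21, adjusted p = 1.06e-08). For both genes, all G libraries were below all unsorted libraries.

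In marrow M the arms parted. There, 16 members were lower than in unsorted marrow (11.2% of all genes were called lower): 14 of 19 replication genes, Ccne1 and Mybl2, but 0 of 24 mitotic genes. By mean, 20 of these 24 mitotic genes were lower and 4 higher in M. The median log2 fold change was -1.17 in the replication arm, -0.30 in the mitotic arm and -0.10 over all genes. Cdc6 had 23.8, 29.95 and 27.2 TPM in M (-1.79 ± 0.35, adjusted p = 7.2e-05), and Ccne1, the cyclin that starts S phase with CDK2, went from 115, 110 and 111 TPM to 29.4, 39.8 and 33.2 TPM (-1.70 ± 0.34, adjusted p = 0.000119). Top2a, the topoisomerase that untangles sister chromatids, had 487, 495 and 423 TPM in unsorted marrow and 392, 423 and 412 TPM in M (-0.19). Foxm1 went the other way, with 71.2, 77.1 and 63.3 TPM in unsorted marrow and 108, 124 and 122 TPM in M (0.74 ± 0.18, adjusted p = 0.000758, under the fold minimum). All M libraries of Foxm1 were above all unsorted libraries.

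Erythroid markers moved with these comparisons. Their 13 genes summed to 40670 to 71290 TPM in unsorted marrow, 639 to 1041 TPM in M and 1732 to 2343 TPM in G, and all 13 were called lower in both sorts. Of 6 promyelocyte granule genes, such as Mpo and Elane, 6 were lower in G and 0 in M (2761 to 3741 TPM unsorted, 1672 to 2149 TPM in M, 142 to 295 TPM in G). The sum of 8 precursor B cell genes was higher in G (2147 to 2403 TPM) and lower in M (194 to 270 TPM) than unsorted (637.8 to 796.5 TPM). The part of these cells in the cell cycle differences was not tested.

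Between the marrow sorts, 4 members were lower in G than in M (3.33% of all genes were called lower), all of the G2 and mitotic wave: Foxm1, Aurkb, Aurka and Kif20a. Foxm1 had 44.8, 57.2 and 50.7 TPM in G, under the M values given above (-1.21 ± 0.18, adjusted p = 3.17e-06). Aurkb, the kinase that corrects kinetochore attachments, had 61.3, 87.7 and 80.7 TPM in G against 166, 181 and 170 TPM in M (-1.17 ± 0.20, adjusted p = 2.92e-05). Aurka, the centrosome kinase, gave -1.01 ± 0.28 (adjusted p = 0.00591) and Kif20a, a kinesin of cytokinesis, -1.01 ± 0.26 (adjusted p = 0.00323). The G and M libraries of Foxm1 and Aurkb did not overlap. In all, 45 of 48 members had a negative difference, with a median of -0.77 in the mitotic and -0.26 in the replication arm, and Ung, Uhrf1 and Chaf1b were positive (0.51, 0.40 and 0.15) without passing the test. The count fell to 2 when G library 1 or M library 2 was left out, and was 8 without G library 2. It was also 2 with libraries rescaled to a common median ratio, where 564 of all 18466 genes were called lower. At 2 calls the share of members was near the background. Monocyte genes (10 of 12) and promyelocyte genes (6 of 6) were lower and all 8 precursor B cell genes were higher in G, with 2147 to 2403 TPM against 194 to 270 TPM.

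In APCmin/+ spleen the same contrast gave more calls, a difference from marrow that was not tested. In G, 37 members were lower than in M (2.64% of all genes were called lower): 22 of 24 mitotic genes, 12 of 19 replication genes and 3 of 5 E cyclins and factors. The median over members was -1.29 against -0.08 over all genes. Ccnb1, the B cyclin that activates CDK1, had 19.1, 17.2 and 8.07 TPM in G and 37.4, 79.6 and 36.4 TPM in M (-1.71 ± 0.31, adjusted p = 0.000313). Plk1, a kinase of mitotic entry and spindle assembly, had 11.3, 11.9 and 6.61 TPM in G and 27.1, 51.9 and 25.4 TPM in M (-1.67 ± 0.25, adjusted p = 4.25e-05). For both, G library 3 was the lowest and M library 2 the highest, and the groups did not overlap.

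The other roles went with them. Cdk1, the kinase of mitotic entry, gave -1.57 ± 0.29 (adjusted p = 0.000384) and Ube2c, which feeds ubiquitin to the anaphase-promoting complex, gave -1.63 ± 0.26 (adjusted p = 7.54e-05). The 11 members not called were Ccne1, Pcna, E2f1, Mcm4, Mcm7, Chaf1b, Cdt1, Tk1, Ung, Cenpa and Kif23, of which Kif23 differed by -0.02 (adjusted p = 1). All of these calls rest on the spread shared over the 13 groups: when only the 6 libraries compared were fitted, 0 members were called and the lowest adjusted p was 0.257, or 0.147 with the replicate number as a block. The count was 20 without M library 2 and 23 without G library 3. Promyelocyte genes summed to 32.2, 405 and 117 TPM in the M libraries and to 6.6 to 63.9 TPM in G, with 4 of 6 called lower, and 9 of 12 monocyte genes were lower in G.

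In BALB/c spleen 1 member passed, in the opposite direction (1.71% of all genes were called higher, so the share of members was at the background). Kif23, a kinesin of the central spindle that is needed to complete cytokinesis, had 73.4, 56.9 and 50.1 TPM in G and 24.9, 25.8 and 24.2 TPM in M (1.22 ± 0.24, adjusted p = 4e-04). Its groups did not overlap. Of the 48 members, 43 had a negative difference, or 35 with libraries rescaled to a common median ratio, and between the libraries numbered 3, 19 were higher in G. Cdc20, the activator of the anaphase-promoting complex, and Foxm1 were the members for which the G minus M difference in APCmin/+ spleen was called lower than that in BALB/c spleen, 2 of 48 (0.547% of all genes were called lower). The difference of differences was -1.49 ± 0.36 for Cdc20 (adjusted p = 0.0303) and -1.16 ± 0.25 for Foxm1 (adjusted p = 0.0116), and all 48 were negative. Fitted on these 4 groups alone, 0 were called (lowest adjusted p 0.389). Leaving out 1 library gave 0 (without APCmin/+ M library 2) to 12 (without APCmin/+ M library 3).

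In APCmin/+ intestine no member was called between G and M (2.83% of all genes were called in either direction). The limma test gave a lowest adjusted p of 0.0506, for Chaf1b, and 11 members had an unadjusted p under 0.05. That number was 44 with the paired replicate block in a fit of these groups alone, where no member was called either, and 2 after rescaling. Yet all 48 were higher in G on average, by a median of 0.45 against 0.14 over all genes, and all 48 were higher in G in each of the 3 numbered pairs. After the same rescaling, 47 were higher, by a median of 0.26 against -0.01 over all genes. Ccnb1 had 27.2, 30.9 and 38.0 TPM in G and 17.9, 21.9 and 28.4 TPM in M, and the groups overlapped. Mature B and plasma cell genes summed to 393 to 769 TPM in G and 5012 to 6109 TPM in M, with 7 of 12 called lower in G. Their part in the difference was not tested.

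Neither intestinal sort differed from unsorted intestine by the call used here. In G, 0 members were called (5.38% of all genes in either direction), the lowest adjusted p was 0.291 and 0 had an unadjusted p under 0.05. In M, 0 were called (4.42% of all genes in either direction), although Chaf1b (-0.72, adjusted p = 0.0306) and Ung (-0.59, adjusted p = 0.0432) passed the p threshold alone. All 48 members were lower in M than unsorted by mean, with a median of -0.30 against -0.27 over all genes, but after rescaling 25 were higher and 23 lower.

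The G minus M difference thus had opposite signs in the spleen and intestine of APCmin/+ mice, and the test of that difference called 44 of 48 members (4.92% of all genes were called higher), with a median of 1.98 in the mitotic and 1.44 in the replication arm. Ube2c had 32.3, 36.1 and 15.5 TPM in splenic G and 68.0, 121 and 71.8 TPM in splenic M, but 61.7, 71.0 and 83.4 TPM in intestinal G and 39.9, 43.2 and 64.4 TPM in intestinal M. The difference of differences was 2.20 ± 0.37 for Ube2c (adjusted p = 0.000165) and 2.20 ± 0.44 for Ccnb1 (adjusted p = 0.000809). Kif23, Tk1, Cdt1 and Ung were not called (0.51, 0.67, 0.87 and 0.95). Fitted on these 4 groups alone, 7 were called, or 9 with the replicate block.

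**Figure D3:**
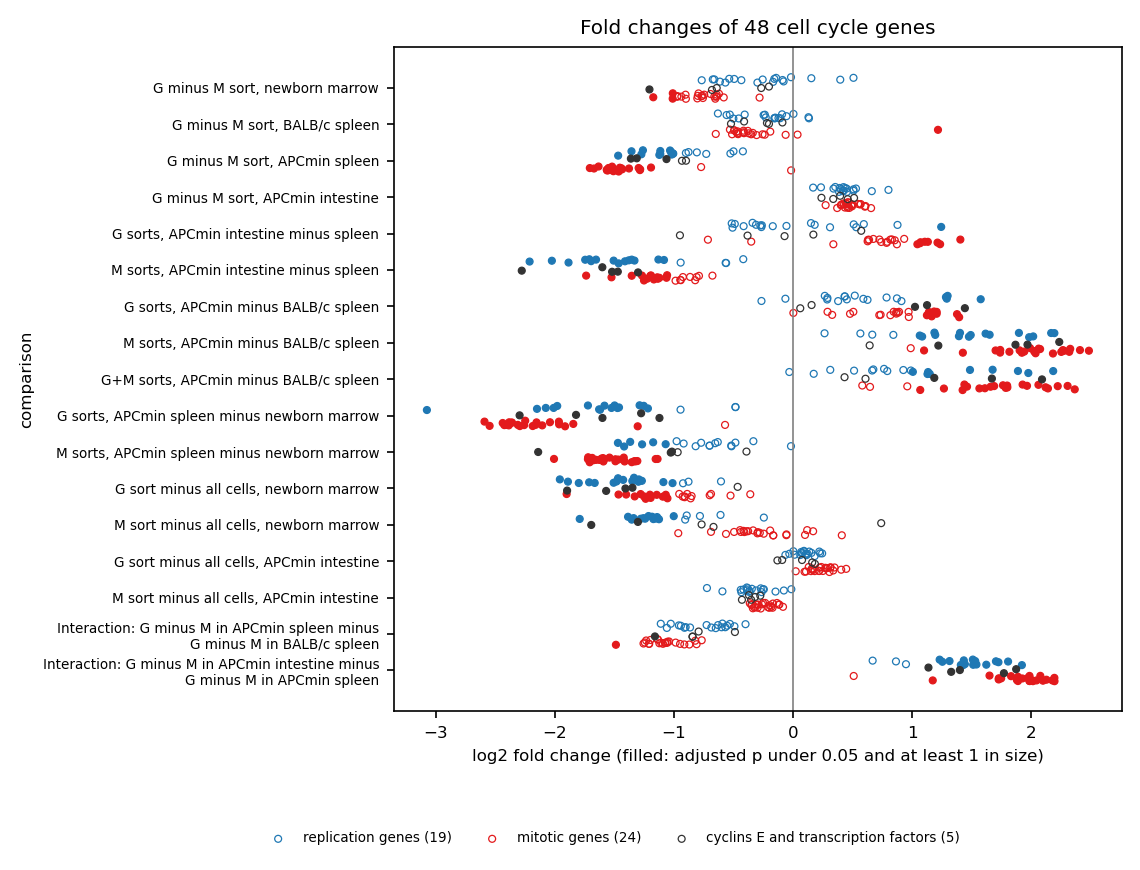
Log2 fold changes of the 48 genes in 17 comparisons (rows), 1 point per gene, coloured by arm and filled where called. In G minus M, points lie below 0 in APCmin/+ spleen and above 0 in intestine, and in M sorts of APCmin/+ against BALB/c spleen 42 of 48 are called higher.

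Set directly against spleen, intestine was lower in the M sort and mixed in the G sort. In M, 35 members were lower in intestine (25.7% of all genes were called lower), with medians of -1.41 in the replication arm, -1.13 in the mitotic arm and -0.43 over all genes. Ccne1 had 20.4, 53.4 and 15.2 TPM in splenic M and 3.41, 4.59 and 5.67 TPM in intestinal M (-2.28 ± 0.34, adjusted p = 7.12e-07). Rrm2, the ribonucleotide reductase subunit made in S phase, had 78.3, 150 and 61.1 TPM against 13.4, 21.02 and 22.5 TPM (-2.21 ± 0.31, adjusted p = 2.73e-07). Cdc6 (-2.03 ± 0.35, adjusted p = 5.8e-06) and the helicase subunit Mcm5 (-1.89 ± 0.27, adjusted p = 4.28e-07) were also among the largest. The groups of Ccne1 and Rrm2 did not overlap. Rescaling left 10 members called lower, where 2414 of all 18466 genes were called lower. The count was 20 without splenic M library 2.

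In G, 9 members were higher in intestine than in spleen (18.7% of all genes were called higher, so the share of members was at the background): 8 mitotic genes and Tyms. Cdc20 gave 1.24 ± 0.25 (adjusted p = 8.04e-05). Ttk, a spindle checkpoint kinase, had 3.80, 3.12 and 1.80 TPM in splenic G and 5.87, 8.58 and 9.50 TPM in intestinal G (1.21 ± 0.23, adjusted p = 2.88e-05), without overlap. Ube2c gave 1.41 ± 0.26 (adjusted p = 1.84e-05), and Tyms, which makes thymidylate, 1.25 ± 0.29 (adjusted p = 0.00032). The medians were 0.83 in the mitotic arm, -0.17 in the replication arm and -0.16 over all genes, and Ccne1 differed by -0.95 without being called. Rescaling gave 17 calls, all higher, where 4034 of all 18466 genes were called higher. Without splenic G library 3 the count was 2. All 17 epithelial genes were higher and all 12 mature neutrophil genes lower in intestine in both sorts. Their part in these differences was not tested.

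Between the spleens, every called member was higher in APCmin/+, with most calls in M. There, 42 members were higher than in BALB/c (5.51% of all genes were called higher), with a median of 1.88 against -0.14 over all genes, 23 of 24 in the mitotic and 15 of 19 in the replication arm. Ccna2, the cyclin of S phase and G2, had 49.97, 110 and 45.4 TPM in APCmin/+ M and 9.74, 12.7 and 9.15 TPM in BALB/c M (2.49 ± 0.29, adjusted p = 7.29e-08). Kif11, the kinesin that separates spindle poles, had 25.5, 47.8 and 27.1 TPM against 5.77, 6.39 and 4.83 TPM (2.32 ± 0.22, adjusted p = 1.91e-09). Neither gene overlapped between the groups. Cdt1, Tk1, E2f1, Pcna, Ung and Aurkb were not called (0.27, 0.57, 0.64, 0.67, 0.84 and 0.99). When only the groups compared were fitted, 29 members were called and the lowest adjusted p was 0.00911.

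In G+M, 33 members were higher in APCmin/+ (3.61% of all genes were called higher), with 21 of 24 mitotic and 9 of 19 replication genes. Birc5, the survivin of the chromosomal passenger complex, had 42.7, 72.4 and 20.5 TPM in APCmin/+ and 6.26, 7.15 and 7.49 TPM in BALB/c (2.37 ± 0.32, adjusted p = 1.09e-06). In G, 16 were higher (3.1% of all genes were called higher), led by Cdc6 with 12.7, 10.97 and 5.40 TPM against 2.06, 2.12 and 3.14 TPM (1.58 ± 0.35, adjusted p = 0.00089) and by Ccne2, the other E cyclin (1.44 ± 0.33, adjusted p = 0.00114). APCmin/+ library 3 was the lowest in both sorts, and neither Birc5 nor Cdc6 overlapped. In G the count was 28 without APCmin/+ library 3, 25 after rescaling and 5 when only the groups compared were fitted. Such a fit called 22 members in G+M, with a lowest adjusted p of 0.0136. Erythroid genes were also higher in APCmin/+ (11 of 13 called in M, 8 in G and 11 in G+M), with 3465 to 17540 TPM against 1157 to 5637 TPM over the 3 sorts. Of the 12 mature neutrophil genes, 11 were higher in M, 2 in G and 3 in G+M. The 12 mature B and plasma cell genes summed to 2781 to 6059 TPM in APCmin/+ M and 6427 to 6657 TPM in BALB/c M, with 2 called lower. The part of these cells was not tested.

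Against newborn marrow, APCmin/+ spleen was lower. In the G sorts 44 members were lower (9.62% of all genes were called lower), with medians of -2.25 in the mitotic and -1.53 in the replication arm. Uhrf1, which carries DNA methylation across the fork, had 166, 224 and 188 TPM in marrow G and 28.1, 26.8 and 13.6 TPM in splenic G (-3.08 ± 0.28, adjusted p = 2.73e-10). The 4 not called were Ung, Kif23, Cdt1 and Tk1 (-0.95, -0.57, -0.48 and -0.48). In the M sorts 33 members were lower (4.64% of all genes were called lower), with all 24 mitotic genes, 6 of 19 replication genes and all 3 transcription factors. Foxm1 had 21.8, 30.4 and 26.5 TPM in splenic M, against at least 108 TPM in marrow M (-2.14 ± 0.18, adjusted p = 5.24e-11), and Aurkb gave -2.01 ± 0.20 (adjusted p = 2.38e-09). The groups of Uhrf1 and Foxm1 did not overlap. Promyelocyte genes were lower in spleen in both sorts (6 of 6 each), as were precursor B cell genes (8 of 8 in G, and 7 in M with 1 higher), with 30.1 to 63.6 TPM in both splenic sorts against the marrow sums above. Mature B and plasma cell genes (9 of 12 in G, 11 in M) and erythroid genes (4 of 13 in G, 12 in M) were higher in spleen. The part of these cells was not tested.

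Some members differed less between marrow and BALB/c spleen than the others. From unsorted marrow to the 9 BALB/c libraries, Birc5, Rrm2, Ccna2 and Ccnb1 differed by -5.11, -4.97, -4.87 and -4.84 on the log2 scale, but Kif23, Cdt1, Ung and Tk1 by -1.86, -2.03, -2.08 and -2.45, and Cenpa by -2.61. These 5 were picked for their small difference, so these values are a description. Kif23 had 169, 172 and 147 TPM in unsorted marrow and 58.8, 47.6 and 65.1 TPM in BALB/c G+M, the sort with the lowest mitotic mean. It also had 64.3, 70.2 and 135 TPM in G of APCmin/+ spleen, where library 3, the lowest in both arm means, was the highest. Cdt1, the licensing factor that works with Cdc6, had 127, 134 and 130 TPM in unsorted marrow and 25.5 to 36.9 TPM over the BALB/c libraries, while Cdc6 had 1.73 to 4.36 TPM there. Cenpa, the histone variant of centromeres, had 38.1 to 52.8 TPM over the BALB/c libraries, and Tk1 41.0 to 55.2 TPM. Kif23 and Cenpa carry the CHR letters, and Cdt1 the E2F letters. Tk1 and Ung had no match to any of the letters searched, so only these 3 of the 5 genes are shown. The lines give 30 bases, with the CHR or E2F match in capitals. Each match begins at base 3, 17 and 33, with the start itself counted as the first base. A CCAAT match in the Kif23 line is left in lower case.
Kif23, chr9:61946780-61946809, minus strand: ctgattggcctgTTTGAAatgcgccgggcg
Cenpa, chr5:30666890-30666919, plus strand: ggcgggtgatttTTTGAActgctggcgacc
Cdt1, chr8:122568035-122568064, plus strand: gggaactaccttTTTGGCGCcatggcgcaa

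**Figure D4:**
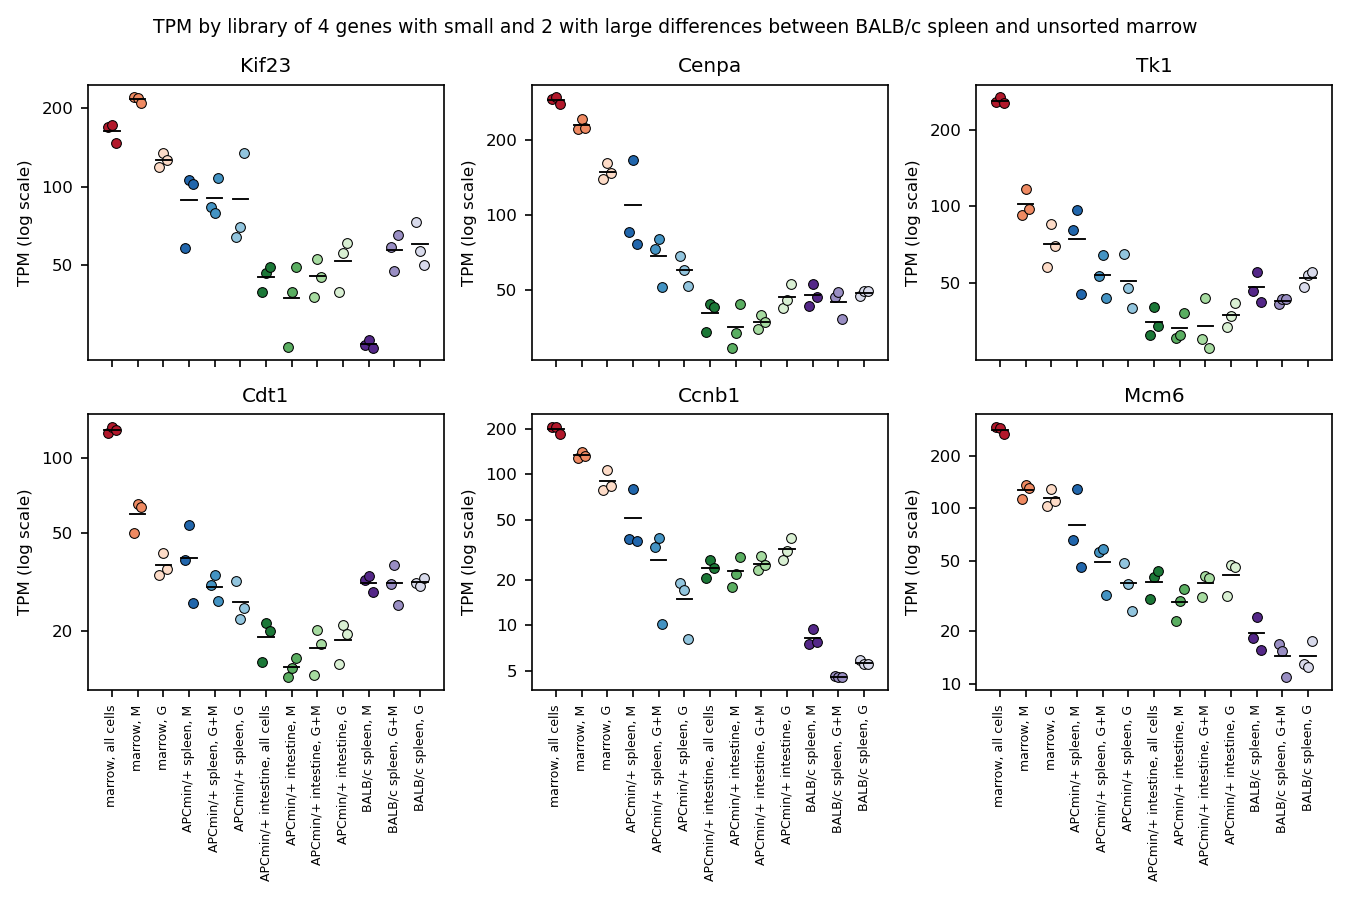
TPM (log axis) in each library of the 13 groups for Kif23, Cenpa, Tk1 and Cdt1, beside Ccnb1 and Mcm6, with bars at the group means. BALB/c spleen stays at 24.2 to 73.4 TPM for Kif23 but at 4.51 to 9.41 TPM for Ccnb1.

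Antisense genes could add reads to some members. In the GENCODE annotation used, 12 of the 48 overlap a protein-coding gene on the other strand, Cdc20, Ube2c, Tk1, Ccna2 and Ccne2 among them, and the sources used here do not say whether the counting used strand. Kif23, Cenpa, Cdt1 and Ung have no such overlap.

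Other genes of the pathway, from lists chosen by function, were counted in the same way. Of 20 other mitotic genes, 16 were lower in G than in M of APCmin/+ spleen, 18 were higher in M of APCmin/+ than of BALB/c spleen, 18 were lower in M of APCmin/+ spleen than of marrow, and 1 was lower in marrow M than in unsorted marrow. Of 14 other replication genes, these counts were 4, 8, 3 and 8. Over all genes, 2.64%, 5.51%, 4.64% and 11.2% were called in the same comparisons and directions. The 1 mitotic gene was Cdc25b, a phosphatase that activates CDK1, with 199, 185 and 209 TPM in unsorted marrow, 35.4, 42.1 and 38.7 TPM in M (-2.32 ± 0.16, adjusted p = 3.81e-12) and 123, 129 and 115 TPM in G. Cdc25b was higher in G than in M (1.64 ± 0.16, adjusted p = 3.07e-09), where 3 other mitotic genes were lower (3.33% of all genes were called lower). Of the 3, Anln, which scaffolds the cleavage furrow, gave -1.34 ± 0.25 (adjusted p = 9.43e-05).

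The CDK inhibitors and D cyclins differed in both directions between spleen and intestine. Of 8 inhibitors, 3 were higher and 2 lower in intestinal than in splenic G, and 3 were higher and 3 lower in M. Of all 18466 genes, 3449 were called higher and 4093 lower in G, and 2630 higher and 4737 lower in M. Cdkn2b, the p15 inhibitor of CDK4 and CDK6, had 79.1, 87.0 and 67.5 TPM in intestinal G and 0.32, 0.10 and 0.48 TPM in splenic G (5.93 ± 0.16, adjusted p = 5.98e-24). Cdkn1a, the p21 inhibitor, had 104, 133 and 113 TPM against 1.58, 2.53 and 3.05 TPM (5.14 ± 0.26, adjusted p = 4.7e-17). Cdkn2d, p19, went the other way, with 7.84, 8.07 and 9.28 TPM against 48.8, 104 and 90.4 TPM (-3.06 ± 0.21, adjusted p = 6.2e-14). Ccnd1, a D cyclin prominent in epithelia, rose from 4.51, 3.45 and 3.91 TPM to 36.2, 49.99 and 61.2 TPM (3.31 ± 0.23, adjusted p = 6.42e-14), and Ccnd3, a D cyclin prominent in blood cells, went from 140, 337 and 268 TPM to 17.5, 28.5 and 24.3 TPM (-3.29 ± 0.24, adjusted p = 3.62e-13). None of these 5 genes overlapped between the tissues.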

How the data were processed

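The deposited table holds gene-level TPM that the authors computed with RSEM. Per the submitters' processing notes, reads were aligned to mm10 with STAR 2.6.1c, and the sources used here do not give the RSEM version, the annotation or the strand setting. Per the labels' protocols, sorted cells were lysed in Trizol, and libraries (TruSeq Stranded mRNA) were run on an Illumina NextSeq. TPM keeps no read counts, so the depth of each sample is unknown and counting error could not be computed. No libraries were identical.

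Each of the 39 libraries was grouped by its label. Genes with at least 1 TPM in at least 3 libraries were tested as log2(TPM + 1), which understates changes of low genes, with limma 3.58.1 in R 4.3.3 (1 mean per group over 13 groups, trended variance, two-sided, Benjamini-Hochberg adjustment over 18466 genes). The test was checked on simulated data with independent libraries and, for each gene, the same spread in all groups. That check cannot speak to groups of unequal spread or to paired libraries. Summaries and figures used Python 3.11.15, pandas 2.3.3, numpy 2.4.6 and matplotlib 3.10.9. Promoter windows came from RefSeq (GRCm38.p6).

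The members and lists were chosen with earlier results of these data known. Named genes were taken from a fixed panel, the 4 largest and 4 smallest called changes without overlap per comparison, calls against an arm's direction, the most abundant member of each role and up to 4 called genes of other lists. Cenpa, Cdt1, Tk1 and Ung, and other members listed because they were not called, were chosen after their values were seen. Equally numbered libraries were checked for pairing by correlating their deviations from group means: the correlation was over 0.1 for every number for the G and M sorts of APCmin/+ spleen (0.555, 0.375 and 0.404) and of intestine (0.599, 0.432 and 0.562), a pairing seen in the data and not stated in the labels. Alternatives were a pseudocount of 0.1, no filter, rescaled libraries, a fit limited to the groups compared, calls without a fold minimum, a replicate block and each library left out.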

Additional observations from a re-analysis of the deposited data

Results flagged for a closer look

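These results are given because the G minus M difference differed between tissues or kinds of mice by a test of the difference itself. The G minus M difference was called lower in APCmin/+ than in BALB/c spleen for 2 members, Cdc20 (-1.49) and Foxm1 (-1.16). It was called higher in APCmin/+ intestine than in APCmin/+ spleen for 44 members, with Ube2c at 2.20 and Ccnb1 at 2.20. When only the groups compared were fitted, these counts were 0 and 7. In intestine itself no member was called between G and M, and the intestinal sorts went against their myeloid labels.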

How the results depend on the processing

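Of 219 alternative counts of called members, 185 stayed within 1.5 times the count reported and 34 did not. With rescaled libraries the counts became 2 (marrow, G against M), 17 and 10 (intestine against spleen, G and M) and 25 (G, APCmin/+ against BALB/c spleen). With no fold minimum they became 24, 29 (G, intestine against spleen), 29 (G, APCmin/+ against BALB/c) and 2 (intestinal M against all cells). Fits of only the groups compared gave 0 (G against M, APCmin/+ spleen), 5 (G, APCmin/+ against BALB/c), 0 (difference between the spleens) and 7 (difference between intestine and spleen). Leaving out each library in turn gave 2 to 8 (marrow, G against M), 20 to 42 (APCmin/+ spleen), 2 to 13 and 20 to 43 (intestine against spleen, G and M), 11 to 28 (G, APCmin/+ against BALB/c) and 0 to 12 (difference between the spleens). The replicate block gave 6 for the difference between the spleens, where the numbers do not pair all samples, and left 37 for APCmin/+ spleen and 44 for intestine against spleen. The replicate block within a fit of the groups compared alone, chosen after seeing the data, gave 0 and 9 for these. Kif23 in APCmin/+ spleen (G against M) turned positive, at 0.18, with rescaling, and ran from -0.35 (without G library 3) to 0.18 with each library left out, positive at 0.11 to 0.18 in 4 of these fits. Other gene values that changed were 36 no longer past the threshold, against 538 that kept direction and call. Of 91 alternative values of the mitotic minus replication difference, 19 moved by more than the replicate SD, under medians over the arms or with the E cyclins and factors added. Marrow M was highest (0.33 and 0.68) and BALB/c G+M lowest (-1.29 and -0.78) under both, and medians turned intestinal G+M and all cells negative (-0.04 and -0.05). Rescaling moved the median of all genes in M from -0.43 to 0.00 between intestine and spleen. The cause of these changes was not tested. Depth is unknown, so its limit on low genes cannot be given.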
